A study of Zea mays with 6 samples.

Results

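Alpha-zeins of 19 and 22 kDa are the most abundant storage proteins of the maize kernel, and 12 alpha-zein genes were followed among the 39179 genes of the deposited tables. Of these, 6 were taken by identifier, among them floury2 and floury4, and 6 more because their description holds both "zein" and "alpha". The RNA came from developing endosperm at 20 days after pollination. There were 3 libraries of wild type (inbred B73) and 3 libraries of the nacRNAi line, labelled Ni4. That line carries an RNA interference construct against NAC transcription factor genes, and the titles do not give its genetic background. RNA interference lowers transcripts that match the construct. The promoter of the construct, the number of insertion events and any pooling of ears are not stated in any source used here. No source says whether the 3 libraries of a line stem from different ears, so a p-value here reflects only how these libraries varied, possibly for technical reasons.

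Zeins are made on the endoplasmic reticulum of starchy endosperm cells and packed into protein bodies, in which gamma- and beta-zeins form the rim and alpha-zeins fill the core. Alpha-zein genes sit largely in tandem arrays of close copies, and classical endosperm mutants map to them. In floury2 (22-kDa class) and floury4 (19-kDa class) the known mutations alter the signal peptide, so that the protein stays anchored in the membrane and the kernel turns opaque and soft. Transcription of the 22-kDa class in particular is known to depend on the bZIP factor opaque2.

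Read counts per library totalled between 55812999 and 69670876, and floors and intervals below cover counting error only. Levels in CPM (reads of a gene per 1e6 counts) are scaled by edgeR's TMM factors, which were below 1 in every wild-type library and above 1 in every nacRNAi library. Fold changes (nacRNAi against wild type) come from edgeR's quasi-likelihood test over 22259 genes with Benjamini-Hochberg adjustment and a threshold of 0.05. By library totals instead, the median log2 fold change of all genes moved from -0.00 to 0.52, so each change is relative to the scaling. Values by totals are given for each alpha-zein gene whose call was lost, and as counts for lists. The files describe Zm00001d008403 as an Arabidopsis NAC domain containing protein 87 and Zm00001d040189 as a no-apical-meristem-related protein1. Both are the genes that knowledge of the study gives as targets, since the labels do not name them, and they were added with their values known. Zm00001d008403 measured 1337, 1335 and 1055 CPM in wild type, against 238, 227 and 222 CPM with the construct, a log2 change of -2.44 by edgeR (adjusted p = 4.22e-06). Zm00001d040189 did not pass, at -0.18 (edgeR, adjusted p = 0.245), and its direction turned to 0.35 by library totals (edgeR, adjusted p = 0.0168) and to 0.54 on the log2(FPKM + 1) scale (limma, adjusted p = 0.00326). Markers of starchy endosperm were present, summing to 3097 to 3588 CPM in wild type and 2560 to 2789 CPM in nacRNAi over 8 genes. Of the 6 tested, 4 were lower and none higher, or 2 lower and 2 higher by library totals. Most of each sum came from 2 genes. Zm00001d044129 had means of 2084 CPM in wild type and 2010 CPM in nacRNAi, not called by TMM and higher by totals. Zm00001d016684 had means of 1039 and 481 CPM, lower under both scalings. Embryo and oil body markers summed to 1472 to 1549 CPM and 895 to 1169 CPM over 9 genes, with 8 lower and 1 higher, or 5 lower and 1 higher by totals. Genes taken for aleurone summed to 118 to 136 CPM and 102 to 109 CPM over 4 genes, with 2 of the 3 tested lower, a direction that turned by totals, where all 3 were higher. These were found by the word "aleurone" in their description, which does not make them markers of aleurone cells. Supernumerary aleurone1 (mean 96.1 CPM in wild type) gave most of the sum. Basal transfer layer markers summed to 25.9 to 66.2 CPM and 15.1 to 24.8 CPM over 11 genes, with 1 of the 5 tested lower under both scalings. Of all tested genes, 24.0% were lower and 23.2% higher, or 9.00% and 50.5% by totals. The 4 embryo surrounding region markers summed to at most 1.66 CPM in any library. The part of these marker differences in the results below was not tested, and in RNA from whole endosperm fewer cells of a type and less RNA per cell cannot be told apart.

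All 12 genes had at least 100 CPM in a line and passed the filter on low counts. In nacRNAi, 11 of the 12 were lower, none was higher and 1 did not pass, where 24.0% of all tested genes were lower and 47.3% passed in either direction. The median log2 fold change of the 12 was -1.34, beside -0.00 over all tested genes. Of the 12, 9 passed and fell at least 2-fold, which 8.94% of all tested genes did. In 11 of the 12 every wild-type library lay above every nacRNAi library, a pattern that 29.5% of all tested genes showed. The fitted change was negative for all 12 under library totals as well, where 9 of the 12 were lower with a median of -0.81, and 9.00% of all genes were lower and 50.5% higher. On the log2(FPKM + 1) scale, 10 of the 11 genes with FPKM values above 0 were lower by limma, with a median of -1.09 beside 0.38 over all genes, of which 6.97% were lower and 56.7% higher.

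**Figure D1:**
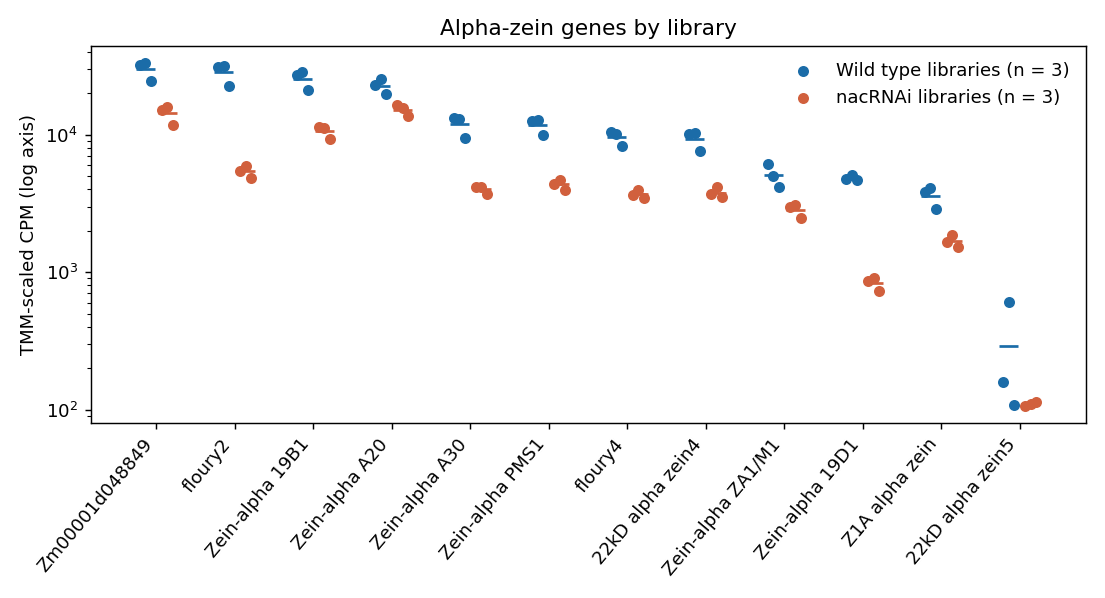
TMM-scaled CPM on a log axis for each of the 12 alpha-zein genes, 1 point per library, wild type and nacRNAi side by side. The wild-type points lie above the nacRNAi points for 11 genes, while 22kD alpha zein5 has a single high wild-type library at 605 CPM.

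The pool as a whole took 14.5%, 14.5% and 11.8% of the reads counted in wild type, against 8.30%, 8.46% and 7.17% with the construct. The counting intervals (Wilson, 95%) were narrow, from 14.445% to 14.462% in wild-type library 1 and from 7.1675% to 7.1807% in nacRNAi library 3. The lines did not overlap, and the means were 13.6% ± 1.57 and 7.98% ± 0.70 (SD, n = 3 each), with an exact two-sided permutation p of 0.1, the smallest that 3 against 3 libraries allow. Summed into a single feature, the 12 genes fell by 1.29 on the log2 scale (SE 0.13, edgeR, adjusted p = 0.000179). Wild-type library 3 was the lowest wild-type library for all 12 genes, and nacRNAi library 3 was the lowest nacRNAi library for 11 of them.

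The other zeins, including those that form the protein body rim, were lower too: all 9 of 9 tested passed in nacRNAi, 7 of them also under library totals, where 24.0% of all tested genes were lower by TMM and 9.00% by totals. Of these, 3 lie among the alpha-zein genes on chromosome 4, with models of 801 or 804 bases, as long as those of 22kD alpha zein5 and alpha zein4. Their descriptions do not say whether they are alpha-zeins. The remaining 6 took 26.7% ± 0.16 of the reads in wild type, against 16.1% ± 0.07 in nacRNAi (SD, n = 3 each). The log2 ratio of the 12 alpha-zeins to those 6 was -0.88, -0.87 and -1.19 in wild type, against -0.95, -0.92 and -1.17 in nacRNAi. The lines overlapped, with a difference of -0.03 and an exact two-sided permutation p of 0.6. This ratio of sums does not show how single genes changed. Among the 6, log2 fold changes by edgeR ran from -5.28 for Zm00001d005793 to -0.67 for Zm00001d020592, the most abundant of them. They are described as Zein-beta and Glutelin-2. Zein protein 15kDa15 (Zm00001d035760) was at -0.93. These names are the deposited descriptions, and which type of zein each gene encodes was not checked.

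Of the 3 genes given the 22-kDa class, floury2 (Zm00001d049243, chromosome 4, 22579361 to 22580152, minus strand) was the most abundant; zein genes of similar model length with no class in their description are not among them. Its level was 31049.9, 31778 and 22656 CPM in wild type, against 5479, 5930 and 4831 CPM with the construct. The lowest wild-type library held several times the highest nacRNAi library. The fall was 5.26-fold between means, a log2 change of -2.40 by edgeR (SE 0.15, adjusted p = 2.33e-05). 22kD alpha zein4 (Zm00001d048812, chromosome 4, 5897751 to 5898554) read 10079, 10201 and 7584 CPM in wild type, against 3671, 4188 and 3526 CPM with the construct. The lines again did not overlap, and the log2 fold change was smaller, -1.29 (SE 0.13, edgeR, adjusted p = 0.000171). The log2 ratio of floury2 to alpha zein4 was 1.61 ± 0.03 in wild type, against 0.51 ± 0.06 in nacRNAi (SD, n = 3 each), without overlap (exact two-sided permutation p = 0.1).

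22kD alpha zein5 (Zm00001d048806, chromosome 4, 5835517 to 5836317) was the least abundant of the 12 and the only one that did not pass. It measured 159, 605 and 108 CPM in wild type, against 107, 109 and 113 CPM with the construct. The lines overlapped, and wild-type library 2 stood apart at 4.54 times the mean of the other wild-type libraries. It was the only gene of 1121 with a wild-type mean of at least 100 CPM that reached 3-fold in that measure. The log2 change was -1.40 by edgeR (SE 0.68, adjusted p = 0.15), and it was -0.28 without wild-type library 2.

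The 19-kDa class includes a run of close copies on chromosome 4. There, 5 gene models of 705 bases each lie within 25.8 kb (6333303 to 6359146, plus strand), and consecutive starts are 11798, 4439, 4440 and 4462 bases apart. They are Zein-alpha 19B1, Zm00001d048849 (which the files call an uncharacterized protein, with no class), Zein-alpha PMS1, floury4 and Zein-alpha A30. All 5 were lower, with log2 fold changes between -1.58 and -1.06. How reads that match several copies were assigned is not stated in any source used here, so the split between copies is uncertain.

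Zein-alpha 19B1 (Zm00001d048848, chromosome 4, 6333303 to 6334007) was at 26984, 28597 and 20994 CPM in wild type, against 11396, 11126 and 9334 CPM with the construct. Zm00001d048849 (6345101 to 6345805) was at 31851, 33167 and 24369 CPM in wild type, against 15126, 15963 and 11761 CPM with the construct. Neither gene's lines overlapped, and the log2 fold changes were -1.27 (SE 0.14) and -1.06 (SE 0.16; edgeR, adjusted p = 0.000227 and 0.0012). Zein-alpha PMS1 (Zm00001d048850, 6349540 to 6350244) measured 12590.2, 12684 and 10018 CPM in wild type, against 4380.4, 4696 and 3987 CPM with the construct. floury4 (Zm00001d048851, 6353980 to 6354684) measured 10421, 10126 and 8333 CPM in wild type, against 3641, 3956 and 3453 CPM with the construct. Zein-alpha A30 (Zm00001d048852, 6358442 to 6359146) measured 13281, 12941 and 9491 CPM in wild type, against 4142, 4163 and 3671 CPM with the construct. These 3 neighbours also showed no overlap, with log2 fold changes of -1.43 (SE 0.12), -1.39 (SE 0.11) and -1.58 (SE 0.14; edgeR, adjusted p = 5.82e-05, 4.69e-05 and 8.94e-05).

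The 19-kDa genes elsewhere differed more from each other. Zein-alpha 19D1 (Zm00001d030855, chromosome 1, 163526102 to 163526827) measured 4785, 5104 and 4651 CPM in wild type, against 864, 908 and 734 CPM with the construct. Its log2 change of -2.54 by edgeR (SE 0.10, adjusted p = 2.99e-06) was the largest of the 12, with no overlap. Z1A alpha zein protein (Zm00001d049476, chromosome 4, 31588160 to 31589091) measured 3798, 4086 and 2869 CPM in wild type, against 1658, 1860 and 1515 CPM with the construct. It fell by 1.10 on the log2 scale (SE 0.14, edgeR, adjusted p = 0.000691), with no overlap.

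Zein-alpha A20 (Zm00001d019155, chromosome 7, 19535000 to 19535722, plus strand) measured 22885, 25564 and 19689 CPM in wild type, against 16311, 15547 and 13702 CPM with the construct. The lines did not overlap, but its log2 change of -0.58 by edgeR (SE 0.12, adjusted p = 0.0047) was the smallest of the 12. By library totals it was -0.06 (edgeR, adjusted p = 0.635). The deposited FPKM table lists it at 0 in every library. Its model overlaps that of Zm00001d019156 on the minus strand, which has no description and is also listed at 0 FPKM. That gene read 9938 to 13387 CPM in wild type and 7589 to 10650.2 CPM in nacRNAi, with a log2 change of -0.34 by edgeR (adjusted p = 0.111). The sources used here do not say whether counting used strand, so reads from these 2 genes may not be separable.

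Zein-alpha ZA1/M1 (Zm00001d048813, chromosome 4, 5909078 to 5909878) carries no class here, since neither its description nor sure knowledge of the protein gives one; its model of 801 bases is as long as that of 22kD alpha zein5. It measured 6101, 5032 and 4177 CPM in wild type, against 2957, 3075 and 2490.1 CPM with the construct, without overlap. The log2 change was -0.85 by edgeR (SE 0.15, adjusted p = 0.00283), and by library totals it was -0.33 (edgeR, adjusted p = 0.0621). ZA1/M1 and A20 were the only members whose call was lost under any setting tried.

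**Figure D2:**
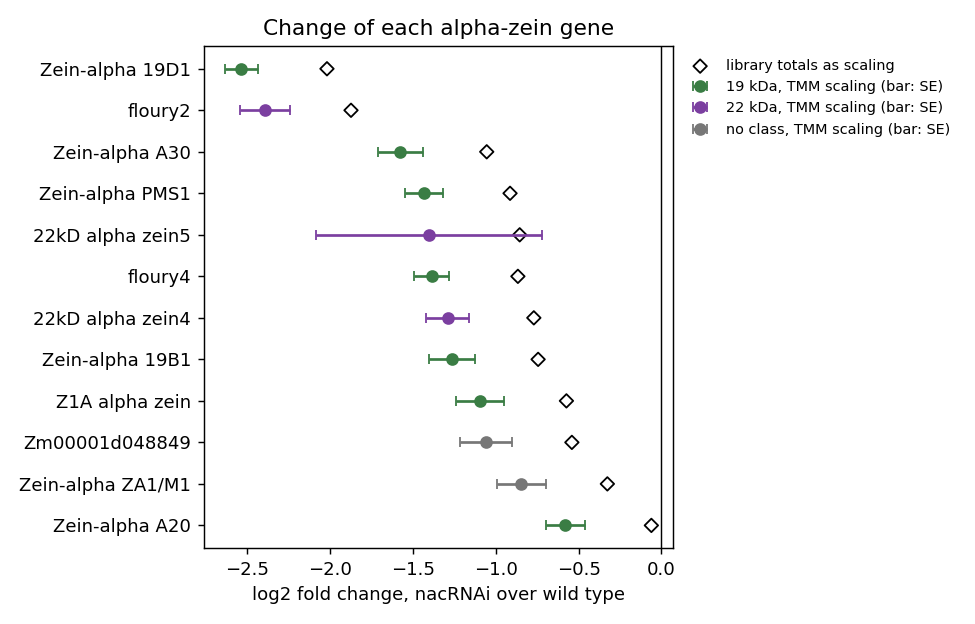
Log2 fold change (nacRNAi against wild type, edgeR) of each alpha-zein gene with its approximate SE, coloured by class, with the value under library totals as an open diamond. 19D1 at -2.54 and floury2 at -2.40 lie farthest from 0, and A20 at -0.58 lies nearest.

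The classes were compared through their sums, with 7 genes of 19 kDa and 3 of 22 kDa. The classes of floury2, floury4, A20, A30, PMS1 and Z1A rest on knowledge of the named proteins, the others on sizes in the descriptions. The 22-kDa sum fell by 2.03 on the log2 scale (SE 0.15, edgeR, adjusted p = 4.02e-05) and the 19-kDa sum by 1.16 (SE 0.12, edgeR, adjusted p = 0.000206). The ratio of the 22-kDa to the 19-kDa sum was 0.436, 0.430 and 0.399 in wild type, against 0.218, 0.242 and 0.233 in nacRNAi. The lines did not overlap, and the log2 difference was -0.87 (exact two-sided permutation p = 0.1). This difference rested on floury2. Without it the difference was -0.13 and the lines overlapped (exact two-sided permutation p = 0.2). Without floury2 and A20, the most abundant gene of each class over all 6 libraries, it was 0.13, again with overlap (exact two-sided permutation p = 0.2). Without A20 alone it was -0.61, and with classes set by the length of the gene model it was -0.42, both without overlap. Classes by length also change which genes are summed. They add ZA1/M1, zein protein 22.1, zein protein3 and zein polypeptidesL2a to the 22-kDa sum. To the 19-kDa sum they add Zm00001d048849, and they leave out Z1A.

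**Figure D3:**
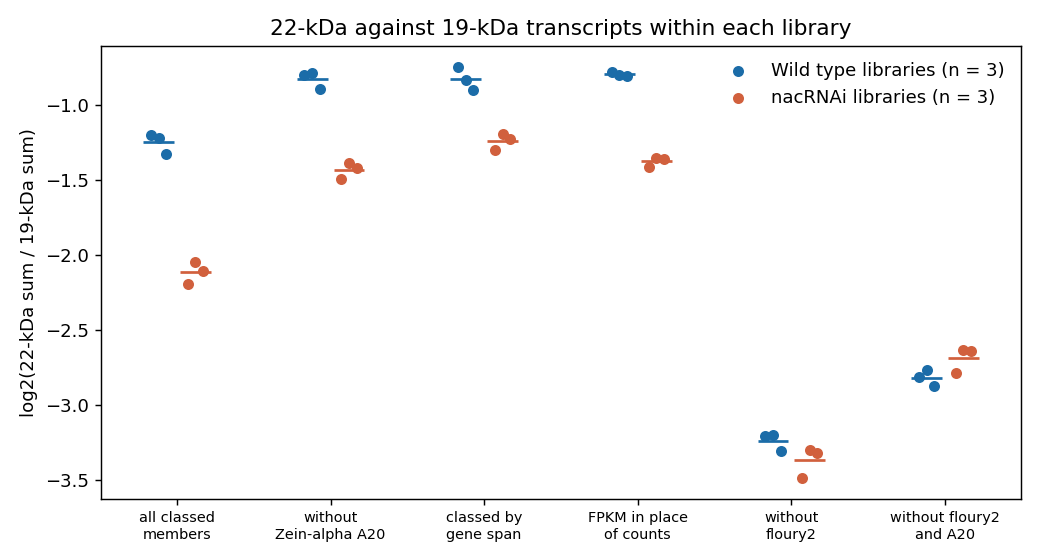
Log2 ratio of the 22-kDa to the 19-kDa sum in each library (points; lines are means), by counts under 5 definitions of the classes and by FPKM sums. The lines separate with all classed genes (difference -0.87) and overlap once floury2 is left out (difference -0.13).

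The make-up of the alpha-zein pool also differed between the lines. floury2 made up 17.8%, 17.7% and 16.8% of the alpha-zein counts in wild type and 7.86%, 8.29% and 8.17% in nacRNAi. A20 made up 13.2%, 14.2% and 14.6% in wild type, against 23.4%, 21.7% and 23.2% in nacRNAi. For both the lines stood far apart, in opposite directions. Shares rose without overlap for 4 genes (A20, Zm00001d048849, ZA1/M1 and Z1A), fell without overlap for 4 (floury2, 19D1, PMS1 and A30) and overlapped for the other 4. Each of the 8 had an exact two-sided permutation p of 0.1, adjusted to 0.15 over the 12, so none passed at this number of libraries. Shares sum to a fixed whole, so a rise in one gene's share does not mean a higher level: the CPM of A20 and of the other 3 was lower in nacRNAi. Against the other 11 genes, the log2 ratio of floury2 went from -2.24 ± 0.06 to -3.50 ± 0.04, that of 19D1 from -5.02 ± 0.18 to -6.30 ± 0.02, and that of A20 from -2.62 ± 0.09 to -1.76 ± 0.07 (SD, n = 3 each).

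**Figure D4:**
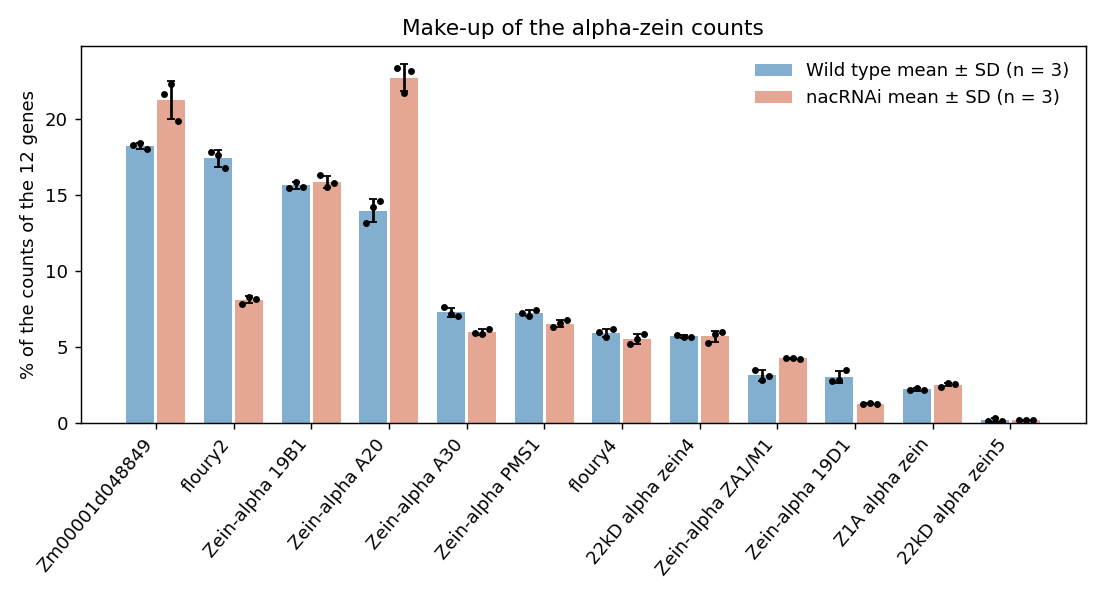
Share of the summed alpha-zein counts taken by each gene, in percent, as bars for the mean of each line with SD (n = 3) and a point per library. The floury2 share is 16.8% to 17.8% in wild type and 7.86% to 8.29% in nacRNAi, and the A20 share is 13.2% to 14.6% and 21.7% to 23.4%.

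Per length, by the deposited FPKM values, Zm00001d048849 was the highest in both lines, at 43626 ± 8113 FPKM in wild type and 24306 ± 3855 FPKM in nacRNAi (SD, n = 3). In wild type floury2 (38169.7 ± 6767 FPKM) and 19B1 (37187 ± 6737 FPKM) followed, and these 3 neighbours in the order lay within each other's SD. PMS1, floury4, A30 and alpha zein4 formed the next group, between 11907 and 14266 FPKM, each within the SD of its neighbour. 19D1 and ZA1/M1, at 6613 and 5845 FPKM, lay within their spread, and Z1A (2709 FPKM) and alpha zein5 (405 FPKM) lay below. In nacRNAi the order was Zm00001d048849, 19B1 (17699 ± 1942 FPKM), floury2 (8587 ± 773 FPKM), then floury4, PMS1, alpha zein4 and A30 between 4922 and 5776 FPKM. ZA1/M1 (3900.2 FPKM), Z1A (1649 FPKM), 19D1 (1349 FPKM) and alpha zein5 (180.1 FPKM) closed it, so 19D1 moved below ZA1/M1 and Z1A. A20, listed at 0 FPKM, was left out of this order; by CPM per kb it ranked 4 of 12 in wild type. In nacRNAi A20 (21005 ± 1856 CPM per kb) and Zm00001d048849 (20260.0 ± 3155 CPM per kb) shared the top within their spread (SD, n = 3).

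On chromosome 4, 10 of the 12 genes fall into 3 places: 8 within 523.63 kb (5835517 to 6359146), floury2 alone, and Z1A alone. The genome build is not stated in any source used here, and coordinates are those of the deposited tables. Among the 10 tested genes on each side of each place that are not members, 29 of 60 passed (48.3%, beside 47.3% of all tested genes), 12 lower and 17 higher, with a median log2 fold change of 0.12. By library totals 37 passed, 2 lower and 35 higher. These shares are near the background and are no result about the flanks. The neighbour nearest to floury2, Zm00001d049244, a putative IQ calmodulin-binding and BAG domain protein 6.94 kb away, went the other way, at 1.21, 0.92 and 1.13 CPM in wild type, against 3.87, 4.15 and 6.40 CPM with the construct. Its log2 change was 2.14 by edgeR (adjusted p = 0.00038). On its other side the nearest tested gene, Zm00001d049242, named after its values were seen, was lower, at -1.21 (edgeR, adjusted p = 0.00323). Taking the 3 called flanking genes with the largest change at each place, Zm00001d049228, Zm00001d049226, Zm00001d049491, Zm00001d049469, Zm00001d049493, Zm00001d048789 and Zm00001d048888 were higher in nacRNAi as well, at log2 fold changes between 0.74 and 3.53. The calls of Zm00001d049493 and Zm00001d048888 were each lost when any 1 of 4 libraries was left out. Zm00001d048859 had 0 counts in every wild-type library and at most 0.308 CPM in nacRNAi, so no fold is given.

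Inside the 523.63 kb, 21 further tested genes lie between the alpha-zein genes, and 16 passed, 11 lower and 5 higher, where 24.0% of all tested genes were lower and 23.2% higher. By library totals 6 were lower and 7 higher, against 9.00% and 50.5%. The 8 that carry the nutrient reservoir term, the annotation of storage proteins that all 12 members carry, were all lower, with a median of -1.01 (from -1.82 to -0.36). By library totals 4 of the 8 remained lower, with a median of -0.49; zein protein 22.1, Zm00001d048807 (-0.22), Zm00001d048818 (-0.10) and Zm00001d048810, which turned to 0.16, lost their calls. Of the 13 without that term, 3 were lower, 5 higher and 5 did not pass, or 2 lower, 7 higher and 4 not passing by library totals. The zein-described genes among the 8 are zein protein 22.1 (Zm00001d048809), zein protein3 (Zm00001d048817) and zein polypeptidesL2a (Zm00001d048847). zein protein 22.1 read 10996, 9582 and 7143 CPM in wild type, against 5368, 5446 and 4127 CPM with the construct. zein protein3 read 9662, 8528 and 6263 CPM in wild type, against 3629.7, 4069 and 3473 CPM with the construct, roughly as high as alpha zein4. L2a read 5357, 6356 and 4448 CPM in wild type, against 1458, 1796 and 1417 CPM with the construct. None of the 3 overlapped between lines, and their log2 fold changes were -0.89, -1.13 and -1.79 (edgeR, adjusted p = 0.00606, 0.00102 and 0.000102). By library totals zein protein 22.1 was at -0.37 (edgeR, adjusted p = 0.0735). Zm00001d048816 (5927153 to 5927953), picked out after its values were seen, has the same term but no description, and was at 10786, 9594 and 7487 CPM in wild type, against 3201, 3471 and 2836 CPM with the construct, a log2 change of -1.55 by edgeR (adjusted p = 0.00014).

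**Figure D5:**
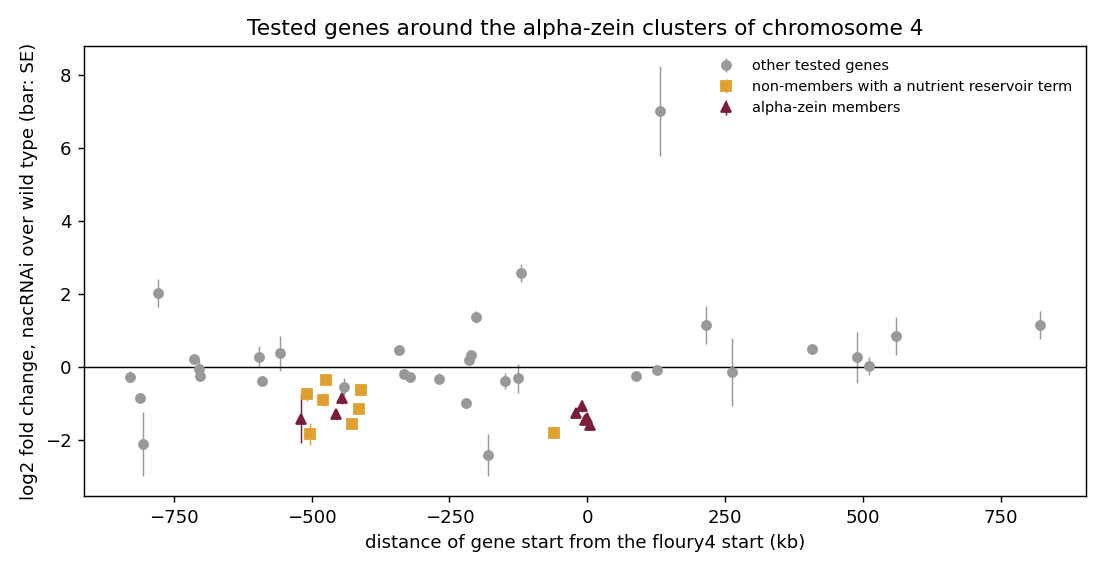
Log2 fold change (edgeR, bars: approximate SE) of the 8 alpha-zein genes within 523.63 kb of chromosome 4 (triangles), of other genes with the nutrient reservoir term (squares) and of the remaining tested genes there and in the flanks (circles), by distance in kb from the floury4 start. All triangles and all 8 squares lie below 0 under TMM scaling (by library totals 1 square, Zm00001d048810, turned to 0.16), while the circles lie on both sides, the highest being Zm00001d048859 with 0 wild-type counts.

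A list of endosperm regulators, found by description, also took in viviparous9 and viviparous14, which are enzymes of carotenoid and abscisic acid synthesis. The list lacks the regulators pbf1, MADS47 and bZIP22, which could not be matched to a gene. Of its 9 genes 8 were tested, and 3 were lower and none higher (37.5%, beside 47.3% of all tested genes called in either direction), but by library totals 1 was lower and 2 were higher. Without those enzymes, a choice made after seeing the data, 2 of 6 were lower and none higher, with a median of -0.40, and by library totals 1 was lower and 1 higher. Regulatory protein opaque-2 (Zm00001d018971), the bZIP factor that activates 22-kDa alpha-zein genes, measured 591, 848 and 576 CPM in wild type, against 345, 365 and 323 CPM with the construct. The lines did not overlap, and its log2 change was -0.96 by edgeR (SE 0.15, adjusted p = 0.00229), or -0.44 by library totals (edgeR, adjusted p = 0.0175).

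Of the 31 listed protein body and endoplasmic reticulum factors 23 were tested, and 10 were lower, 4 higher and 9 did not pass, where 24.0% of all tested genes were lower and 23.2% higher. By library totals 6 were lower and 14 higher, against 9.00% and 50.5%. No gene was found under the name BiP, so BiP is not in this list. The folding factor families split. Higher under both scalings were a gene described as Calreticulin-3 (Zm00001d038648, 0.27), calnexin homolog2 (Zm00001d025305, 0.35), protein disulfide isomerase10 (Zm00001d003654, 0.66) and protein disulfide isomerase11 (Zm00001d025131, 0.19). The 6 lower under both were Calreticulin-2 (Zm00001d005460, -1.42), a gene described as Calreticulin-3 (Zm00001d012170, -2.13) and protein disulfide isomerase8 (Zm00001d020687, -1.18), known as endoplasmic reticulum folding factors, and 3 genes named for opaque or floury kernels. floury endosperm1 (Zm00001d003398), a membrane protein needed for the placing of 22-kDa alpha-zein in the protein body, measured 120.1, 114 and 128 CPM in wild type, against 39.4, 43.8 and 42.6 CPM with the construct. opaque endosperm10 (Zm00001d033654), which is needed for the ring-like placing of zeins, measured 334, 196 and 210.4 CPM in wild type, against 63.6, 55.1 and 54.5 CPM with the construct. opaque endosperm1 (Zm00001d052110), a myosin, measured 88.2, 83.2 and 93.5 CPM in wild type, against 25.03, 26.1 and 24.5 CPM with the construct. None overlapped between lines, with log2 fold changes of -1.52, -2.10 and -1.81 (edgeR, adjusted p = 5.92e-06, 0.00059 and 2.63e-06).

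The genes most like the summed alpha-zein profile were sought among 1100 genes with a wild-type mean of at least 100 CPM. Members and the other zeins named by their descriptions were left out. Likeness was the root mean square difference in log2 CPM over the 6 libraries, each profile centred on its wild-type mean. The 5 closest were Autophagy-related protein 8c (Zm00001d002257, 0.084), Zm00001d014017 with no description (0.106), dihydropyrimidine dehydrogenase (Zm00001d017966, 0.119), Ribosome-inactivating protein 3 (Zm00001d010371, 0.128) and small subunit ribosomal protein 16 (Zm00001d020983, 0.134). They were chosen for that likeness, so their changes are a description. Autophagy-related protein 8c, for instance, measured 172, 173 and 149 CPM in wild type, against 73.5, 73.1 and 65.8 CPM with the construct.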

How the data were processed

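The authors deposited raw read counts per gene and FPKM values per gene, with columns for 6 libraries next to positions, descriptions and GO terms, per the file headers. The FPKM values were scaled by gene length and library size by the authors. The aligner, counter, build and strand handling are not stated in any source used here. Lines and replicate numbers came from the titles. Members and lists were chosen with earlier results of these data known.

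Counts were filtered by filterByExpr, TMM-scaled and tested by edgeR 4.0.16 (robust quasi-likelihood fit of all 6 libraries, with line as the model's single factor) in R 4.3.3, with Benjamini-Hochberg adjustment over 22259 genes. Each SE is approximate, the size of the log2 fold change over the root of edgeR's F. FPKM values were tested with limma 3.58.1 on log2(FPKM + 1), for genes of at least 0.1 FPKM in 3 libraries, a scale that understates changes of low genes. Class sums entered the edgeR fit as features. Single quantities were compared by exact two-sided permutation over libraries (scipy 1.17.1). A count of 0 allows 3 counts, 0.0362 to 0.0625 CPM per library. The fit was checked on simulated data with few changed genes, as many raised as lowered. Those data held no shift in make-up between the lines, so the check cannot speak to the choice of scaling. Replicates differed beyond sampling noise (chi-square over its degrees of freedom 25.8 to 49.9) and were kept as separate samples. A RefSeq gene table matched 0 of the 12 members by identifier and 2 by description, and no sequence is printed.

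Named genes are all members, up to 3 called flanking genes per place with the largest change, members of the background lists and the 5 genes nearest the summed profile. The class by model length, the sums without A20 or floury2, the pool with its 3 zein neighbours and the regulators without 2 enzymes were chosen after seeing the data. The other alternatives were other scalings and filters, DESeq2 1.42.0, FPKM with limma, the replicate block and leaving out each library.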

Additional observations from a re-analysis of the deposited data

How the results depend on the processing

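The count of lower alpha-zein genes was 11 without any single library, and the calls of ZA1/M1 and A20 were lost only under library totals. Genes called in all ranged from 8525 to 9714 without a library, against 10519. Library totals called 13238 genes, 50.5% of those tested higher and 9.00% lower, against 23.2% and 24.0%. Leaving out a library put the 19-kDa sum at -1.26 to -1.08, the 22-kDa sum at -2.17 to -1.95, the sum of all 12 at -1.40 to -1.21, the share difference at -6.50 to -5.13 percentage points, the log2 class ratio at -0.91 to -0.83 and called flanking genes at 20 to 24. The share difference of -5.59 points was -12.8 with counts outside zein genes as the denominator, a smaller denominator that makes every share larger. It was -12.3 as a share of summed FPKM, in which A20 counts as 0 and genes are weighted by length. Glutelin-2 is also listed at 0 FPKM in every library. The gene zein protein 15kDa15 is listed at 0 FPKM in wild-type libraries 1 and 2. It has 99367 FPKM in wild-type library 3 and 84653 to 87029 FPKM in nacRNAi. The summed FPKM is therefore not alike across libraries. What set the FPKM value apart was not tested. The class ratio of -0.87 was -0.58 by FPKM sums, which lack A20, -0.42 with class by model length, -0.61 without A20, -0.13 without floury2, and 0.13 without the most abundant gene of each class. Called flanking genes were 81 of 150 (54%) with 25 genes per side and 50 of 97 (51.5%) within 1 Mb. With 10 genes per side they were 29 of 60 (48.3%), and the difference in share was not tested. Zm00001d040189 turned from -0.18 to 0.35 by library totals, 0.54 on log2(FPKM + 1) and 0.55 on log2(FPKM + 0.1); the cause was not tested. With the replicate number as a block 9273 genes were called, and 11 alpha-zein genes were lower. Same-numbered libraries deviated with correlations of -0.039, -0.039 and -0.104. No source used here says whether the numbers pair libraries, and correlations over all genes cannot decide it. With 3 libraries per line exact tests cannot go below 0.1.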
